A study of Mus musculus with 6 samples.

Results

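The genes described here are ligands, inhibitors and target genes of bone morphogenetic protein (BMP) and activin signalling. They are the BMP ligand genes Bmp2, Bmp4 and Bmp6, the activin subunit gene Inhba, the inhibitor genes Fst and Bambi, and the target genes Id1, Id2, Id3 and Id4. They were found by their gene symbol in the annotation of the array. All 10 listed genes were present, each with 1 probe, among 16446 symbols on 16631 annotated probes. The arrays carried 1 dye and measured messenger RNA of hepatic stellate cells, liver pericytes that store vitamin A when quiescent and turn into matrix-producing myofibroblasts after injury. The knockout cells, with 3 arrays, came from mice lacking Sept4 (labelled SEPT4-KO). The wild-type cells, also with 3 arrays, came from mice with Sept4. Every mouse in both groups had liver cirrhosis induced by CCl4 (carbon tetrachloride, a hepatotoxin), so no array shows cells of an uninjured liver. Sept4 encodes a member of the septins, GTP-binding proteins that assemble into filaments. The age and strain of the mice, the CCl4 dose, the design of the Sept4 allele and the way the cells were isolated were not stated in the labels.

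BMPs and activins are secreted dimers that bind pairs of type I and type II serine/threonine kinase receptors. BMP receptors mainly phosphorylate Smad1, Smad5 and Smad9, and activin receptors Smad2 and Smad3, and both kinds of Smad act with Smad4. Follistatin, the product of Fst, binds activins tightly and holds them away from their receptors, and Bambi encodes a membrane pseudoreceptor that dampens signalling. The Id genes are classical immediate targets of BMP Smads. Their products have a helix-loop-helix domain but no DNA-binding domain, and they hold basic helix-loop-helix (bHLH) factors such as the E proteins off DNA. In the liver, BMP6 made by non-parenchymal cells is known for its control of hepcidin and iron, and activin A, the dimer of the Inhba product, is known as a profibrotic and growth-limiting factor.

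Signals are given as deposited, on the log2 scale, so a difference of 1 is a 2-fold difference. Differences are knockout minus wild type, tested with limma over all 23473 probes with Benjamini-Hochberg adjustment, and a gene is said to have risen or fallen where its adjusted p was under 0.05. Correlations across probes were 0.981 to 0.982 between knockout arrays, 0.986 between wild-type arrays and 0.967 to 0.971 between genotypes. Nothing shows that the 3 arrays of a genotype came from separate mice or isolations, so p-values measure the spread between these arrays, which may be technical. No probe is annotated as Sept4, so the deleted gene was not used to check the labels. Array medians were all 5.02, but the mean upper quartile was 7.82 in knockout and 7.72 in wild-type arrays. Over all probes the median of the differences was 0.12, and it shrank to 0.02 with quantile normalisation and to 0.01 with cyclic loess. Of all probes 42.7% passed, made up of 26.7% that were higher and 16.0% that were lower in the knockout. Of the calls 62.6% were higher, a share that became 52.5% with quantile normalisation and 51.5% with cyclic loess. An exact two-sided permutation test of 3 arrays against 3 cannot give a p below 0.1, so the number of arrays limits every statement on a single gene.

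Of the 10 genes, 4 rose in knockout cells (Bmp2, Bmp6, Id2 and Id3), 2 fell (Inhba and Fst), and 4 did not pass (Bmp4, Bambi, Id1 and Id4). Over all probes 26.7% rose and 16.0% fell. The largest of the 10 differences was the rise of Id3, 2.77-fold, and the largest falls were those of Inhba, 1.78-fold, and its antagonist gene Fst, 1.73-fold. The arrays of the genotypes did not overlap for 6 of the 10 genes, against 56.2% of all probes. The median difference of the 10 genes was 0.11, against 0.12 over all probes. None of the 10 signals lay at the lowest value of its array on any array. Replicate SDs ran between 0.03 and 0.23 log2 units. The count of genes that rose was smaller in some settings, where Bmp2, Bmp6 or both no longer passed. It was 2 when any 1 wild-type array or knockout array 1 or 2 was left out, and 3 without knockout array 3.

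**Figure D1:**
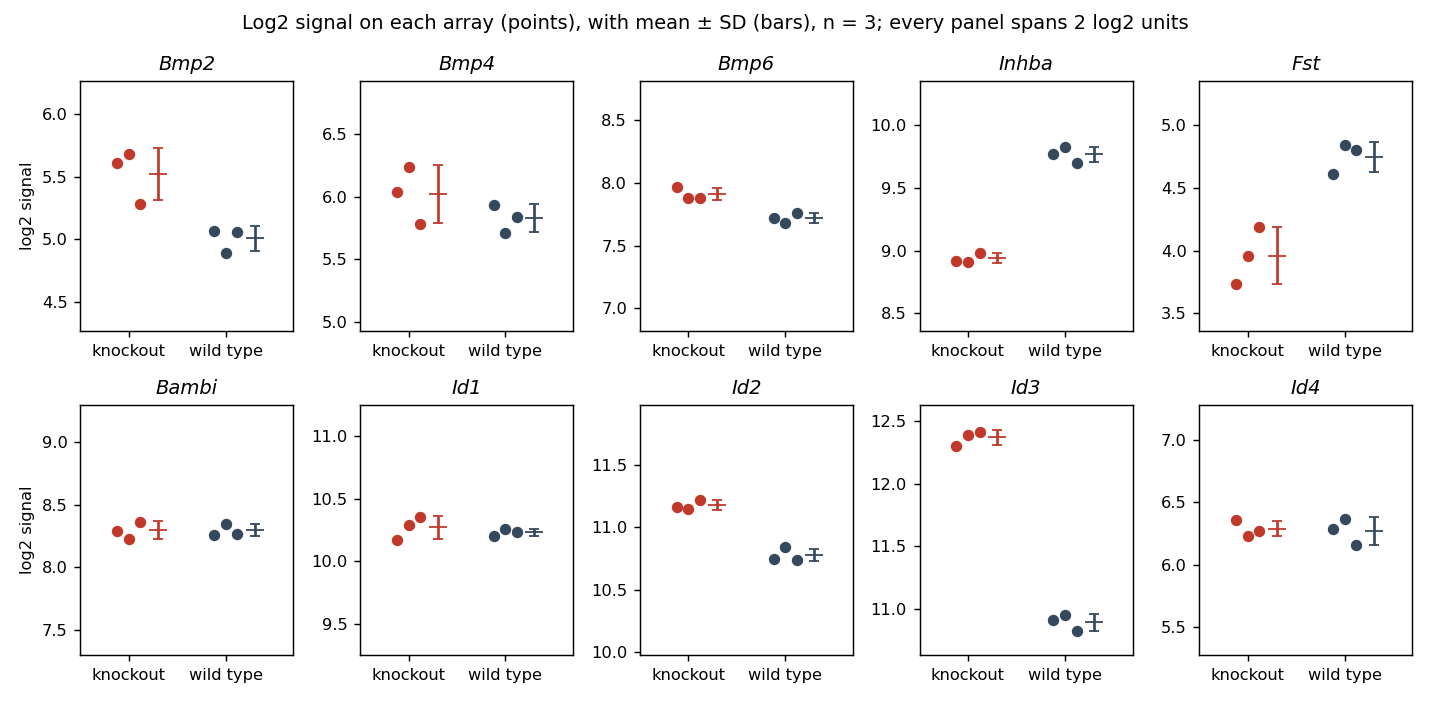
Log2 signal of each of the 10 genes on the 3 knockout arrays (red, left) and the 3 wild-type arrays (dark blue, right); points are arrays, and the bars beside them give the mean ± SD. Each panel spans the same number of log2 units. Id3 stands 1.35 units apart between the nearest arrays of the genotypes, whereas the points of Bmp4, Bambi, Id1 and Id4 overlap.

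Among the BMP ligand genes, Bmp2 rose 1.43-fold, Bmp6 rose by a small step, and Bmp4 did not pass. BMP2 and BMP4 are close relatives that signal through the same receptors. Bmp2 read 5.61, 5.68 and 5.28 on the knockout arrays, against 5.07, 4.89 and 5.06 on the wild-type arrays. The knockout arrays all lay above the wild-type arrays, although the lowest of them came within 0.21 of the highest wild-type array. The difference was 0.51 ± 0.13 (SE, n = 3 each, adjusted p = 0.0262 in limma). It kept its size after quantile normalisation, at 0.50, and cyclic loess, at 0.51. The call ended when any 1 array other than knockout array 3 was left out, at adjusted p-values in limma of 0.061 without wild-type array 1, 0.0827 without wild-type array 2, 0.064 without wild-type array 3, 0.0787 without knockout array 1 and 0.0715 without knockout array 2.

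Bmp6 read 7.97, 7.88 and 7.88 on the knockout arrays, against 7.72, 7.68 and 7.76 on the wild-type arrays. The groups did not overlap, and the gap between them was 0.12. The difference was 0.19 ± 0.05 (SE, n = 3 each), with an adjusted p of 0.0386 in limma, while the median difference of the 1825 probes of like signal (within 0.5 log2 units) was 0.14. The rise thus exceeded that of probes of like brightness by little, and it was no longer called after quantile normalisation (0.09, adjusted p = 0.268) or cyclic loess (0.08, adjusted p = 0.307). Leaving out any 1 of the 6 arrays also ended the call, with adjusted p-values in limma of 0.0946 without knockout array 1, 0.0811 without knockout array 2, 0.0701 without knockout array 3, 0.0959 without wild-type array 1, 0.123 without wild-type array 2 and 0.0617 without wild-type array 3.

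Bmp4 read 6.04, 6.24 and 5.78 on the knockout arrays, against 5.93, 5.71 and 5.84 on the wild-type arrays. The groups overlapped. The difference was 0.19 ± 0.14 (SE, n = 3 each, adjusted p = 0.317 in limma), with a 95% interval of -0.16 to 0.54, which holds both no change and the rise measured for Bmp2. The knockout SDs of Bmp2 and Bmp4, 0.21 and 0.23, were above those of the wild type, 0.10 and 0.11, and knockout array 3 was the lowest knockout array for both genes. The log2 ratio of Bmp2 to Bmp4 within an array was -0.43, -0.56 and -0.50 on the knockout arrays, against -0.86, -0.82 and -0.78 on the wild-type arrays. That ratio did not overlap between the genotypes and changed by 0.32 ± 0.04 (SE, n = 3 each), with an exact two-sided permutation p of 0.1.

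Inhba and Fst fell. Inhba, which encodes the beta A subunit shared by activin A and inhibin A, read 8.92, 8.91 and 8.98 on the knockout arrays, against 9.77, 9.83 and 9.70 on the wild-type arrays. The groups were separated by 0.72, while the SDs within them were 0.04 in knockout and 0.06 in wild-type arrays. The difference was -0.83 ± 0.06 (SE, n = 3 each, adjusted p = 0.000655 in limma), with a 95% interval of -0.98 to -0.69. Probes of like signal had a median difference of 0.17, and Inhba differed by -0.97 after quantile normalisation and by -0.98 after cyclic loess. Fst, which encodes the activin-binding protein follistatin, read 3.73, 3.96 and 4.19 on the knockout arrays, against 4.61, 4.84 and 4.80 on the wild-type arrays. Again no knockout array reached the lowest wild-type array, and the gap was 0.42. The difference was -0.79 ± 0.14 (SE, n = 3 each, adjusted p = 0.00861 in limma). The signal of Fst lay below the array median of 5.02, and its fall was 0.71 with a constant added to the linear signals. Both calls held under all 13 other settings run, with adjusted p-values in limma of up to 0.0189 for Inhba and 0.0356 for Fst.

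The fall of the ligand gene and that of its antagonist gene did not differ beyond the spread between arrays. The log2 ratio of the Inhba to the Fst signal within an array was 5.19, 4.95 and 4.79 on the knockout arrays, against 5.16, 4.99 and 4.90 on the wild-type arrays. The ratio depends on the 2 probes and does not compare abundances, but its change between genotypes does not depend on how the arrays were scaled to each other by a constant. That change was -0.04 ± 0.14 (SE, n = 3 each), with an exact two-sided permutation p of 0.8, and the groups overlapped. The SE leaves room for a moderate difference between the falls.

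Bambi, the pseudoreceptor gene, read 8.29, 8.23 and 8.36 on the knockout arrays, against 8.26, 8.35 and 8.27 on the wild-type arrays. The groups overlapped. The difference was 0.00 ± 0.06 (SE, n = 3 each, adjusted p = 0.997 in limma), with a 95% interval of -0.15 to 0.15. After quantile normalisation it was -0.10 and after cyclic loess -0.12, with adjusted p-values of 0.196 and 0.122 in limma.

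**Figure D2:**
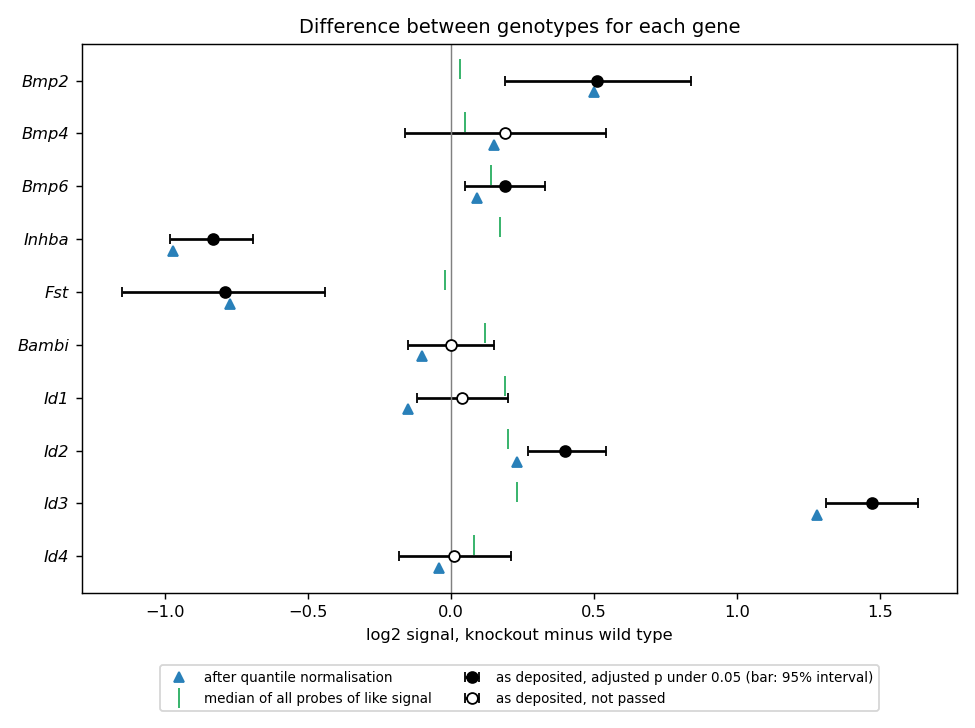
Difference in log2 signal, knockout minus wild type, for each gene as deposited (circles, filled where the adjusted p was under 0.05, with 95% intervals), after quantile normalisation (triangles), and the median difference of all probes within 0.5 log2 units of the gene's mean signal (green ticks). Id3, Inhba and Fst lie far from the green ticks under both scalings shown, while Bmp6 lies close to its tick.

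Among the Id genes, Id3 rose 2.77-fold and Id2 1.32-fold, while Id1 and Id4 did not pass. Id3 read 12.30, 12.39 and 12.41 on the knockout arrays, against 10.91, 10.95 and 10.82 on the wild-type arrays. The gap between the genotypes, 1.35, exceeded the SDs within them, 0.06 in knockout and 0.07 in wild-type arrays. The difference was 1.47 ± 0.06 (SE, n = 3 each), at an adjusted p of 0.000341 in limma, with a 95% interval of 1.31 to 1.63, or 2.49-fold to 3.09-fold. Of the 613 probes of like signal, 90% had a difference below 0.70. Id2 read 11.16, 11.15 and 11.22 on the knockout arrays, against 10.75, 10.84 and 10.74 on the wild-type arrays. All knockout arrays were higher, by at least 0.32. The difference was 0.40 ± 0.05 (SE, n = 3 each, adjusted p = 0.0033 in limma). Probes of like signal had a median difference of 0.20, and scaling reduced the rise of Id2 to 0.23 (quantile, adjusted p = 0.0112 in limma) and 0.21 (cyclic loess, adjusted p = 0.0169).

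Id1 read 10.17, 10.29 and 10.35 on the knockout arrays, against 10.20, 10.26 and 10.23 on the wild-type arrays. Knockout array 1 was the lowest of the 6 and knockout array 3 the highest, so the genotypes overlapped. The difference was 0.04 ± 0.06 (SE, n = 3 each, adjusted p = 0.67 in limma), with a 95% interval of -0.12 to 0.20. After either scaling it turned to -0.15 and -0.14, with adjusted p-values of 0.0754 and 0.113. Id1 is widely used as a readout of BMP Smad activity. Id4 read 6.36, 6.23 and 6.27 on the knockout arrays, against 6.29, 6.37 and 6.16 on the wild-type arrays. These groups overlapped as well, and the difference was 0.01 ± 0.08 (SE, n = 3 each, adjusted p = 0.906 in limma), with a 95% interval of -0.18 to 0.21.

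Ratios between Id genes within an array restate these differences free of a constant scaling of the array. The log2 ratio of Id3 to Id1 was 2.13, 2.10 and 2.06 on the knockout arrays, against 0.71, 0.69 and 0.59 on the wild-type arrays, a change of 1.43 ± 0.04 (SE, n = 3 each). The ratio of Id3 to Id2 changed by 1.07 ± 0.04 and that of Id2 to Id1 by 0.37 ± 0.04 (SE, n = 3 each). For these pairs and for Id3 and Id2 against Id4 the genotypes did not overlap, and the exact two-sided permutation p was 0.1, the smallest it can be, so that no pair could pass a threshold of 0.05. The ratio of Id1 to Id4 changed by 0.02 ± 0.10 (SE, n = 3 each), with overlap and an exact permutation p of 0.9. Of 10 such pairs of genes compared, chosen after their values were seen, 7 did not overlap, with an exact permutation p of 0.143 after adjustment over the 10 pairs. Among single probes 56.2% did not overlap, and no such share was computed for ratios, so the count says nothing particular of these pairs.

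The promoters of the Id genes other than Id1 are shown because the differences measured for these paralogs ran between 0.01 and 1.47. The sequence set held no entry for Id1, so its promoter could not be set beside them. RefSeq sequence (GRCm38.p6) of the 250 bases before the annotated start was matched for 6 of the 10 genes, and 3 Id genes are printed, with GGCGCC (the GC-rich core bound by BMP Smads) and CAGAC (the Smad box, read on either strand, so also GTCTG) in capitals. They are Id3 at chr4:136143572-136143821 (plus strand), Id2 at chr12:25096093-25096342 (minus strand) and Id4 at chr13:48260866-48261115 (plus strand).
Id3: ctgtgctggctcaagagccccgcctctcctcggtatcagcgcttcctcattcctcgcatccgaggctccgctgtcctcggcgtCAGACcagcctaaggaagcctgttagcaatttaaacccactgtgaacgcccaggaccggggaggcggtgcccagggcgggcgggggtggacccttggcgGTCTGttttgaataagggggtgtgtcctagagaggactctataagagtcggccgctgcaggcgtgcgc
Id2: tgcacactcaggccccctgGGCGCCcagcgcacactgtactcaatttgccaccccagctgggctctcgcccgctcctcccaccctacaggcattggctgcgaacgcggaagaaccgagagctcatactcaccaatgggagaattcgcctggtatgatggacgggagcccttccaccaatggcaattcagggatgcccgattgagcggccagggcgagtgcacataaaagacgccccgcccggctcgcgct
Id4: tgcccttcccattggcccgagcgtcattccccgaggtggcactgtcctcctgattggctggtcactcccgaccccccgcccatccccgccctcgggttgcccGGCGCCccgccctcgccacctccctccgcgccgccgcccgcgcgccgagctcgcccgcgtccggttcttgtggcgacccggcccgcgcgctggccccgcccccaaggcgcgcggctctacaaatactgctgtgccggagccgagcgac
The Id3 window held 2 Smad boxes, with first bases 167 and 68 bases before the start, and no GGCGCC. The Id2 and Id4 windows each held 1 GGCGCC, at 231 and 148 bases before the start, and no CAGAC. Across all 32851 windows of this length, 42.2% held CAGAC and 9.59% held GGCGCC on either strand. The GC content was 62.8% in the Id3 and Id2 windows and 75.6% in that of Id4, against a median of 52.4% over all windows. The shares over all windows are not matched for GC content, so they do not show whether GGCGCC is frequent here beyond base composition. Other motifs searched on both strands were TGACG, the core of the cAMP response element (17.8% of all windows), the E-box CANNTG (66.2%), CCAAT (33.8%) and TATAAA (12.4%). Id3 held 1 TGACG, which overlaps its more distant Smad box, Id2 held 1 E-box and 3 CCAAT, and Id4 held 1 TGACG and 2 CCAAT. These matches describe the letters of the windows and nothing of binding in these cells.

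Brighter probes passed the threshold more often, so the members' calls are best read beside probes of like signal. Near the signal of Fst 37.0% of probes passed, near Bmp2 46.8%, near Bmp6 68.4%, near Inhba 70.6%, near Id2 71.1% and near Id3 69.2%. The differences of Id3, Inhba and Fst lay outside the central 80% of probes of like signal, which ran between -0.38 and 0.70 for Id3, -0.45 and 0.66 for Inhba, and -0.78 and 0.63 for Fst, the last by 0.01 only. Bmp2, Bmp6 and Id2 lay inside the corresponding ranges.

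**Figure D3:**
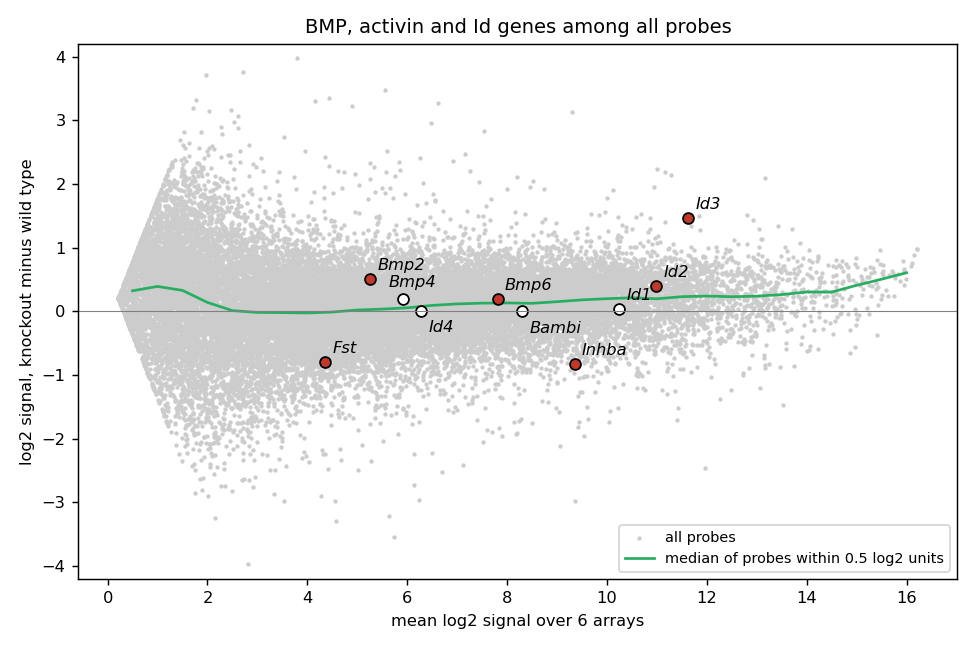
Difference in log2 signal, knockout minus wild type, against mean log2 signal over the 6 arrays, for all probes (grey) and the 10 genes (red where the adjusted p was under 0.05, white otherwise). The green line is the median of probes within 0.5 log2 units. It lies at 0.23 at the signal of Id3 and at 0.03 at that of Bmp2.

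The other genes of the pathway also moved in both directions. Of 102 listed genes 94 were measured, and 32 rose and 14 fell in knockout cells, with a median difference of 0.14. These were 34.0% and 14.9% of the measured genes, against 26.7% and 16.0% of all probes with a median difference of 0.12, so the shares lay near the background. The lists were written with earlier results of these data known. After quantile normalisation or cyclic loess, 27 rose and 18 fell. Among 13 other BMP and growth differentiation factor ligand genes 4 rose and 0 fell, and either scaling left those counts as they were, while 1 fell without wild-type array 3. Gdf10, which encodes BMP3b, read 8.10, 8.05 and 8.16 on the knockout arrays, against 5.86, 5.77 and 5.61 on the wild-type arrays. This 5.11-fold rise (2.35 ± 0.08 on the log2 scale, SE, n = 3 each, adjusted p of 0.000281 in limma) was the largest of any ligand gene examined. Gdf9, known as an oocyte growth factor, rose by 0.67, Bmp5 by 0.30 and the dim Bmp8a by 0.79. The call for Bmp8a ended when any 1 of the 6 arrays was left out, with adjusted p-values in limma of up to 0.104. Among 7 other activin, inhibin and related ligand genes 0 rose and 1 fell, with a median difference of 0.04. The count that fell was 2 without wild-type array 3 or knockout array 1. The gene that fell as deposited was Mstn (myostatin, annotated as Gdf8), which was below the array median and differed by -1.17 ± 0.16 (SE, n = 3 each, adjusted p = 0.00382 in limma), or by -0.93 with a constant added to the linear signals.

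Of 13 receptor and co-receptor genes 5 rose and 0 fell, against 26.7% and 16.0% of all probes. After either scaling 3 of these genes rose and 2 fell. When any 1 wild-type array or knockout array 2 was left out, 3 rose. Neo1, which encodes neogenin, a receptor for repulsive guidance molecules that act as BMP co-receptors, rose by 0.82, and endoglin (Eng), a co-receptor of BMP9 and BMP10, by 0.60. Acvrl1, the type I receptor gene ALK1, rose by 0.29. Its call ended without any 1 of the wild-type arrays or knockout array 1, at adjusted p-values in limma of 0.0618, 0.051, 0.0539 and 0.0549. Hemojuvelin (Hjv, annotated as Hfe2) passed with 1.54 but was near the lowest values of the wild-type arrays, and it was 0.77 with a constant added to the linear signals. The call ended with that constant, at an adjusted p of 0.0581 in limma, and after quantile normalisation or cyclic loess, at 0.084 and 0.0798. It also ended without any 1 of the wild-type arrays, at up to 0.126, and without knockout array 2 or 3, at 0.0978 and 0.124. The 2 genes that fell after scaling were the receptor genes Acvr1, by 0.29, and Acvr2a, by 0.21 after quantile normalisation. As deposited they differed by -0.19 and -0.11 without passing.

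Of 14 genes of Smads and their regulators, 6 rose and 6 fell, against 26.7% and 16.0% of all probes. The inhibitory Smad gene Smad6 rose by 0.56 and the activin-responsive Smad gene Smad3, which was below the array median, by 0.48. Among the genes of the BMP Smads, Smad1 fell by 0.42, at an adjusted p of 0.00273 in limma, and Smad5 and Smad9 did not pass. The call for Smad3 ended without knockout array 1 or 2, at adjusted p-values of 0.0503 and 0.0569 in limma, and with a trended and robust prior, at 0.0935. Smurf1, which encodes a ubiquitin ligase for BMP Smads, fell by 0.73, and Pmepa1 (annotated as Tmepai), a membrane protein that sequesters activin and TGF-beta Smads, fell by 0.71. Among 19 extracellular antagonists and modulators 5 rose and 2 fell, or 4 and 4 after either scaling. The chordin gene Chrd rose by 0.67 and Twsg1, which encodes twisted gastrulation, by 0.70. Tll1, a protease gene of the family that cleaves chordin, fell by 2.97. The chordin-like gene Chrdl1 lay at the lowest value on 2 of the 3 knockout arrays and differed by -1.99, or by -1.10 with a constant added to the linear signals.

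Of 15 other BMP-responsive genes 6 rose and 2 fell, against 26.7% and 16.0% of all probes. After either scaling 5 of these genes rose and 2 fell. Hepcidin (Hamp, annotated as Hamp1), the iron-regulating hormone that BMP6 induces in hepatocytes, read 6.09, 6.06 and 5.94 on the knockout arrays, against 3.79, 3.93 and 3.91 on the wild-type arrays. This was a 4.45-fold rise (2.15 ± 0.07 on the log2 scale, SE, n = 3 each, adjusted p of 0.00025 in limma). Mice carry a closely related gene, Hamp2, and whether the probe tells them apart was not tested. The transcription factor genes Atoh8 and Hey1 rose by 1.05 and 0.91, whereas the homeobox gene Msx2 fell by 2.49, or by 1.98 with a constant added, and was dim in the knockout. Smad6 and Smad7, which both rose, belong to this list as well as to that of the Smads, and each counts once in the total over the lists. Of 15 genes of E proteins and other bHLH factors, 8 rose and 3 fell, against 26.7% and 16.0% of all probes. After either scaling 7 of these bHLH genes rose and 3 fell. Tcf21, a mesenchymal bHLH factor, rose by 0.92 and the circadian repressor gene Bhlhe40 (annotated as Bhlhb2) by 0.89. Hes1, a target of Notch, fell by 1.47, and the dim blood and endothelial factor gene Tal1 by 1.67.

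**Figure D4:**
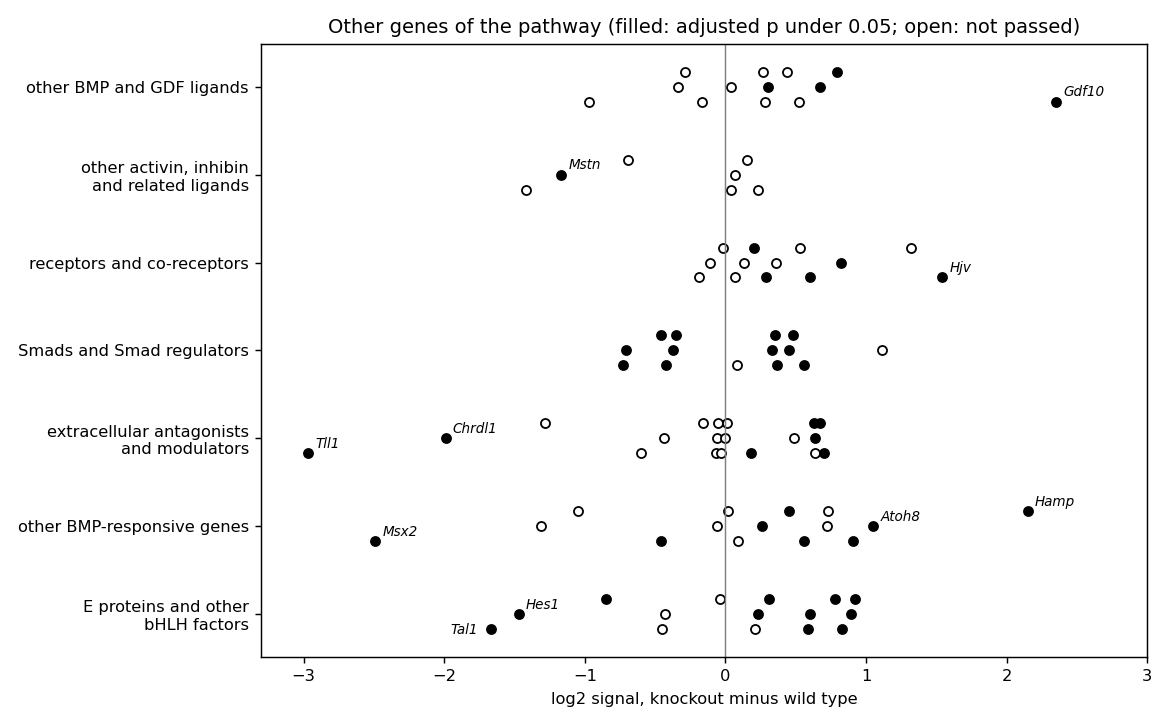
Difference in log2 signal, knockout minus wild type, for the 94 other pathway genes by list, with 1 point per gene in each list that holds it (filled where the adjusted p was under 0.05). Points past 1 log2 unit that passed are named. Gdf10 at 2.35 and Hamp at 2.15 are the highest filled points, and Tll1 at -2.97 and Msx2 at -2.49 the lowest.

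Markers of the cell types that a stellate cell preparation could hold are given beside these results. In such bulk samples fewer cells of a type and less RNA per cell cannot be told apart. Over all probes 26.7% rose and 16.0% fell, shares to set beside the counts of each list here. Of 13 stellate cell markers 9 rose and 1 fell, and none lay at the lowest value of an array. The largest of these rises were those of Lrat, by 2.41, Cygb, by 2.05, and Colec11, by 1.44, and the marker that fell was Des, by 0.41. Linear signals of a list were summed on each array and the sum put on the log2 scale, so the brightest markers weigh most. For the stellate cell markers that sum was 13.35 to 13.39 in knockout and 12.70 to 12.76 in wild-type arrays. Endothelial cells are a known source of Bmp2 and Bmp6 in the liver. The sum of 12 endothelial markers was 8.99 to 9.04 in knockout and 8.69 to 8.82 in wild-type arrays. Of these 12 markers 3 rose, 1 fell and 8 did not pass, and the median of the list was 0.00. Those that rose were Fcgr2b by 1.13, Stab1 by 0.73 and Vwf by 2.12, and Emcn fell by 1.63. Vwf read 3.20, 3.21 and 3.24 on the knockout arrays, against 0.63, 2.44 and 0.22 on the wild-type arrays, 1 of which was at its lowest value. Its adjusted p was 0.0408 in limma, and the call ended after cyclic loess, at 0.0505, and without any 1 array other than wild-type array 2, at 0.0978 to 0.117. The defining marker Pecam1 averaged 3.89 in knockout and 3.87 in wild-type arrays. Of 11 hepatocyte markers 4 rose and 2 fell, and their sum was 10.54 to 10.58 in knockout and 10.43 to 10.47 in wild-type arrays. Those that rose were albumin (Alb) by 0.88, Pck1 by 0.71, Ahsg by 0.49 and Cps1 by 0.35, and those that fell were Ttr by 0.42 and Fga by 0.57, while the median of the list was 0.03. The call for Cps1 ended without wild-type array 2 or 3 or knockout array 1 or 3, at adjusted p-values in limma of 0.056 to 0.0657, and with a trended and robust prior, at 0.202. That for Fga ended without wild-type array 1 or knockout array 2, at 0.0546 and 0.0522. Of 11 macrophage markers 1 rose and 2 fell, and the median of the list was 0.00. The marker that rose was Clec4f, by 0.52, and the most negative difference was -1.27, for Adgre1. The sums of this list overlapped, at 11.28 to 11.30 in knockout and 11.23 to 11.37 in wild-type arrays. Of 7 cholangiocyte markers 1 fell and 6 did not pass, and the median of the list was 0.06. The marker that fell was Spp1, a gene that stellate cells also express. Their sum was 9.17 to 9.25 in knockout and 10.18 to 10.31 in wild-type arrays. Of 10 portal fibroblast and mesothelial markers 2 rose and 2 fell, with sums of 8.29 to 8.43 in knockout and 8.71 to 8.78 in wild-type arrays, and Fbln2 and Upk3b lay at the lowest value on at least 1 array. The part of these markers in the differences of the BMP, activin and Id genes was not tested.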

How the data were processed

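Total RNA of hepatic stellate cells from CCl4-treated knockout and wild-type mice was labelled with Cy5 and hybridised to 6 single-colour arrays, per the labels' protocols. The authors deposited log2 values for 23473 probes, quantile normalised per the labels. The log base was read from their range, and the upper quartiles still differed between genotypes. Unlike the stated design, the protocol for labelling speaks of a kit for microRNA and of tumours. How background was corrected is not stated in the labels. Probes were named from the platform annotation, and older symbols were matched through RefSeq synonyms. A listed gene with several probes took the brightest.

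Groups were taken from the sample titles. Knockout minus wild type was fitted in limma (version 3.58.1, in R 4.3.3; lmFit, then eBayes) on the values as deposited, with two-sided tests adjusted over all probes. The fit was tested on simulated data. Ratios of gene pairs were tested by exact permutation. The members, the pathway and marker lists and the naming rule were chosen with earlier results of these data known. That rule named all members, then per pathway list the 4 largest differences that passed, or the 2 smallest p-values where none did. Among pathway genes, Acvr1, Acvr2a, Smad1, Smad5, Smad7 and Smad9 were named outside the rule. Alternatives were quantile and cyclic loess normalisation, a trended and robust prior, a constant (the 10th percentile) added to the linear signals, a filter on the dimmest 25% of probes, the replicate number as a block, the mean of a gene's probes, and leaving out each array. Motif windows came from RefSeq on GRCm38.p6. Figures used matplotlib 3.10.9.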

Additional observations from a re-analysis of the deposited data

How the results depend on the processing

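The directions and calls of Id3, Id2, Inhba and Fst held under all 13 other settings run, with differences of 1.25 to 1.50, 0.21 to 0.43, -0.98 to -0.80 and -0.91 to -0.68. The 2 genes that fell stayed 2 in every setting, and Bmp4 never passed. Of the 10 genes, 4 rose as deposited, 3 after quantile normalisation or cyclic loess, and between 2 and 3 when 1 array was left out. The replicate numbers in the titles are not said to pair the arrays. Deviations of same-numbered arrays from their group means correlated at 0.00775, -0.00135 and -0.00196, which shows no sign of pairing but cannot exclude it. In a fit with the replicate number as block, 2 genes rose, because Bmp2 and Bmp6 no longer passed (adjusted p of 0.0817 and 0.107 in limma), and 7724 probes passed in place of 10025. Under this block 27 pathway genes were higher and 15 lower, 2 receptor and co-receptor genes rose in place of 5, and the calls for Acvrl1, Hjv, Vwf, Cps1 and Fga ended (adjusted p of 0.0701, 0.0557, 0.0728, 0.0946 and 0.0536 in limma). Leaving out 1 array gave 7954 to 9082 calls over all probes, 27 to 29 pathway genes higher, 14 to 17 lower, and a median difference of the 10 genes of 0.06 to 0.12. Small differences that had not passed turned sign. Bambi differed by -0.10 after quantile normalisation, -0.12 after cyclic loess, and between -0.03 and 0.03 when 1 array was left out. Id1 differed by -0.15 and -0.14 after these scalings and by 0.00 to 0.09 when 1 array was left out. Id4 differed by -0.04 and -0.03 after the scalings and by -0.04 to 0.06 when 1 array was left out. The causes were not tested. Hjv in wild-type and Chrdl1 in knockout arrays lie near the lowest values, and their differences have SEs of 0.46 and 0.37.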

Other observations

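Over all annotated probes, the genes whose values across the 6 arrays lay nearest to those of Id3, after each probe was centred on its mean, were Cp, which encodes the copper-binding ferroxidase ceruloplasmin, Emilin1, an elastic fibre protein gene, and Figf, a vascular endothelial growth factor gene. Their root mean square distances from Id3 were 0.0361, 0.0422 and 0.0468 log2 units, and their own differences were 1.48, 1.49 and 1.52. For Inhba the nearest were Hs6st2, a heparan sulfate sulfotransferase gene, Ndufb4, a complex I subunit gene, and Ripk2, a kinase gene of innate immune signalling. Their distances were 0.0155, 0.0181 and 0.0227, and they differed by -0.81, -0.83 and -0.81. The likeness rests on 6 arrays in 2 genotypes and says nothing of shared function.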
